A study of Mus musculus with 6 samples.

Results

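The receptors with a VPS10 domain were followed in bulk RNA sequencing of the mouse inner ear. The family has 5 members, Sort1 (sortilin), Sorl1 (SORLA), Sorcs1, Sorcs2 and Sorcs3, and all 5 were found among the 55401 genes of the count table by their symbols. The libraries came from wild-type mice (WT, n = 3) and from mice whose genotype is written Pou3f4y/- (KO, n = 3), and Pou3f4 is an X-linked transcription factor of the mesenchyme around the ear. The labels give the tissue as inner ear cells and the cell type as all the cells, but every library also carries the entry interstitial cells under cell line, so that the labels do not settle which cells were taken. All libraries have the same treatment entry (identify), and no age, sex field or strain is given. The genes were chosen by name as a family, with the WT and KO counts of these same libraries already in view. Differences between the genotypes in the members are therefore given as a description, and nothing is drawn from their size. Calls of members in the fits over all genes are stated beside the share of all genes called, and are not used as evidence about the family.

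VPS10 domain receptors are membrane proteins that pick up soluble and membrane cargo in the Golgi apparatus, at the cell surface or in endosomes and steer it to another compartment. Sortilin sends enzymes and growth factor precursors to lysosomes or to secretory vesicles and, together with the neurotrophin receptor Ngfr, binds the precursors of neurotrophins. SORLA holds the amyloid precursor protein App away from the compartments where it is cut. The SorCS receptors are best known from neurons, where they sort synaptic receptors and adhesion proteins.

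Libraries held 18409409 to 23323953 counts in total. Pou3f4 matched its label in every library, with 1044 to 2233 counts in WT and 28 to 45 in KO. Xist, which is transcribed from an inactive X chromosome, held 9143 to 15783 counts in WT replicates 1 and 2 and in KO replicates 2 and 3, and 6 and 1 counts in WT replicate 3 and KO replicate 1, although a y/- genotype is that of a male. Inner ear markers were present: 8 of 8 genes of supporting cells and otic epithelium, 8 of 8 of otic fibrocytes and mesenchyme and 8 of 9 of hair cells were above the filter on low counts, Atoh1 being the exception.

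Measured per kilobase of exon, Sort1 was the most abundant receptor and Sorcs3 the least in both genotypes. This scale divides CPM, a gene's counts as parts of 1000000 of the scaled library, by the length of all annotated exons of a gene, so that levels of different genes can be compared. Sort1 stood at 18.0 ± 1.18 CPM per kilobase in WT and 18.7 ± 1.46 in KO (SD, n = 3 each). Sorcs2 followed with a level of 8.14 ± 1.38 CPM per kilobase in WT and 8.89 ± 0.701 in KO. Sorl1 had a level of 7.16 ± 2.08 CPM per kilobase in WT and 6.89 ± 1.07 in KO. The ranges of Sorcs2 and Sorl1 overlapped within each genotype on this scale. Compared within each library, Sorcs2 lay above Sorl1 in WT replicate 1 and in all KO libraries, and below it in WT replicates 2 and 3. Their order in WT is thus not fixed by this scale. With the longest transcript as the length, Sorcs2 stood apart from Sorl1 in WT, at 12.6 ± 2.13 against 7.57 ± 2.19 CPM per kilobase. Sorcs1 had a level of 2.37 ± 0.517 CPM per kilobase in WT and 1.33 ± 0.0936 in KO. Sorcs3 had a level of 1.65 ± 0.782 CPM per kilobase in WT and 0.439 ± 0.0362 in KO. The ranges of Sorcs1 and Sorcs3 overlapped in WT and lay apart in KO.

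**Figure D1:**
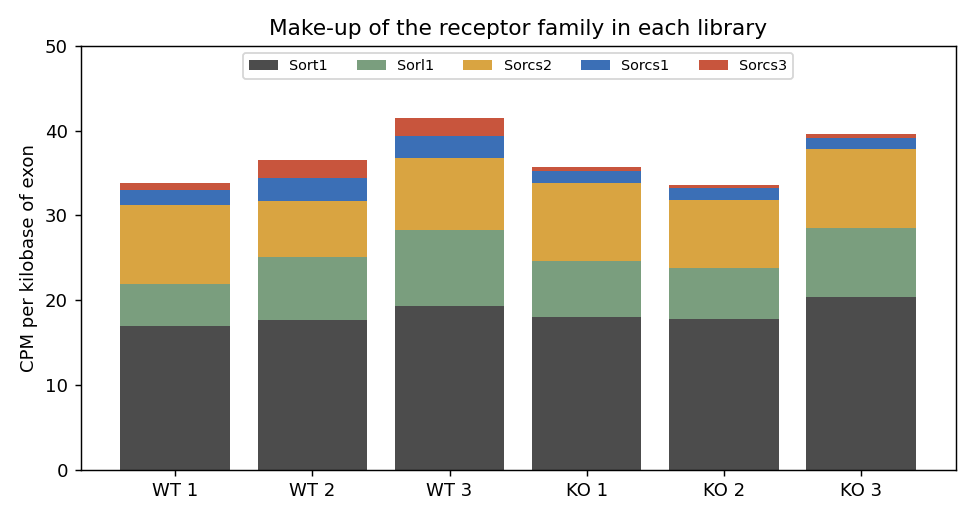
Stacked bars give the CPM per kilobase of exon of the 5 receptors in each of the 6 libraries, so the height of a bar is the summed level of the family. Sort1 fills 46.4% to 52.8% of every bar, and the Sorcs3 segment shrinks from 2.20% to 5.79% of the bar in WT to 1.15% to 1.30% in KO.

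The summed level of the family was close in both genotypes, at 37.3 ± 3.89 CPM per kilobase in WT and 36.3 ± 3.02 in KO (SD, n = 3 each), and the libraries overlapped. Within it Sorcs1 made up 6.34 ± 1.08% in WT and 3.70 ± 0.499% in KO. Sorcs3 made up 4.33 ± 1.89% in WT and 1.21 ± 0.0790% in KO. The lower share of these 2 receptors was thus a small part of the family's transcripts, most of which came from Sort1, Sorcs2 and Sorl1 in every library.

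Sorcs3 had lower values in every KO library. It encodes a receptor of the postsynaptic membrane that takes part in the weakening of excitatory synapses (ENSMUSG00000063434, mm10 chromosome 19, 48206025 to 48805505, plus strand). WT replicates 1 to 3 held 95, 290 and 291 counts of Sorcs3, and KO replicates 1 to 3 held 76, 65 and 60. On the CPM scale these were levels of 5.31, 15.1 and 14.8 in WT and 3.31, 2.83 and 3.25 in KO. The KO libraries all lay below the WT libraries and close to each other, while WT replicate 1 lay nearer to the KO libraries than to the other WT libraries. The fitted level was 3.75-fold lower in KO, a log2 fold change of −1.91 (SE 0.40). Without WT replicate 1 the log2 fold change was −2.27, and without WT replicate 2 it was −1.68.

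Sorcs1 was the other receptor with lower values in every KO library. It encodes a receptor that keeps neurexins and glutamate receptors at the neuronal surface (ENSMUSG00000043531, mm10 chromosome 19, 50143299 to 50678646, minus strand). The WT libraries held 269, 440 and 436 counts of Sorcs1 and the KO libraries 276, 260 and 193. As levels these were 15.0, 22.9 and 22.2 CPM in WT and 12.0, 11.3 and 10.4 CPM in KO. The groups did not overlap, and WT replicate 1 was again the lowest WT library, although its distance to the others was smaller than for Sorcs3. The fitted level was 1.78-fold lower in KO (log2 fold change −0.83, SE 0.18). Without single libraries the log2 fold change ranged from −1.01 to −0.72.

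Sorcs1 and Sorcs3 did not keep a fixed ratio. The level of Sorcs1 per kilobase was 2.39, 1.28 and 1.27 times that of Sorcs3 in WT replicates 1 to 3. It was 3.07, 3.38 and 2.72 times that of Sorcs3 in the KO libraries. WT replicate 1, with less of both transcripts than the other WT libraries, had a ratio between those of the other WT libraries and those of KO.

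**Figure D2:**
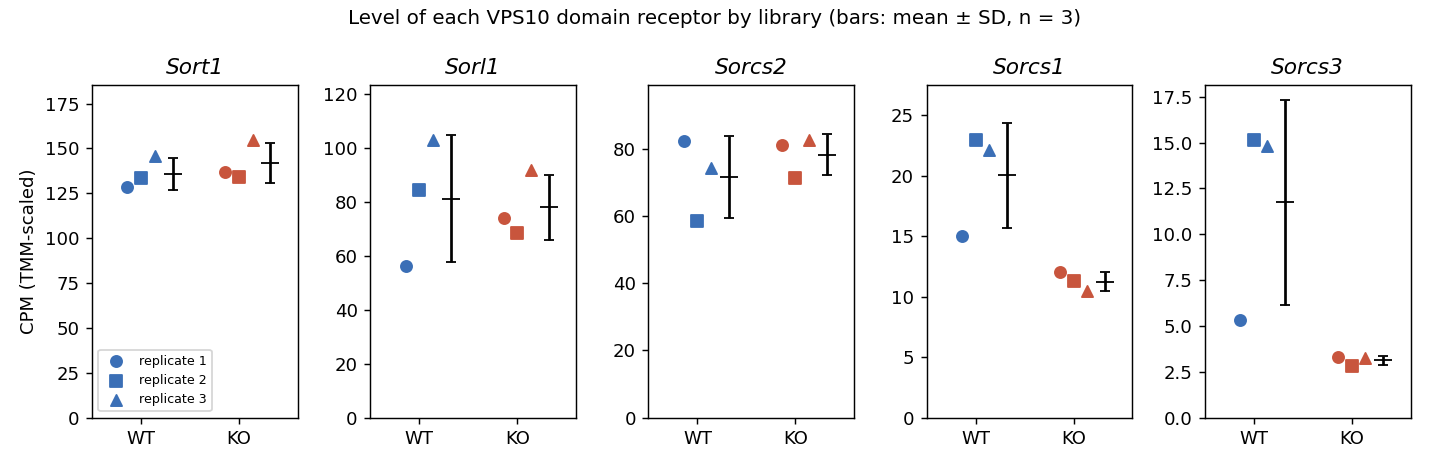
Each panel plots the CPM of 1 receptor in the 3 WT (blue) and 3 KO (red) libraries on an axis from 0, with the marker shape giving the replicate and the bar the mean ± SD. Sorcs1 and Sorcs3 are lower in all KO libraries with WT replicate 1 lowest in WT (15.0 and 5.31 CPM), while the other 3 receptors overlap between the genotypes.

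Sort1, Sorl1 and Sorcs2 overlapped between the genotypes. Sort1 (ENSMUSG00000068747, mm10 chromosome 3, 108284082 to 108361511, plus strand) held 2297, 2565 and 2867 counts in WT and 3140, 3081 and 2857 in KO. Its levels of 128, 134 and 146 CPM in WT and 137, 134 and 155 CPM in KO gave a coefficient of variation of 6.57% in WT, the lowest of the family. The log2 fold change was 0.06 (SE 0.09), and leaving out single libraries moved it between −0.00161 and 0.12.

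Sorcs2, which pairs with Ngfr as a receptor for the precursor of brain-derived neurotrophic factor, was the only SorCS receptor with a fitted change above 0 (ENSMUSG00000029093, mm10 chromosome 5, 36017180 to 36398139, minus strand). Its levels were 82.3, 58.4 and 74.3 CPM in WT and 81.1, 71.2 and 82.5 CPM in KO (log2 fold change 0.13, SE 0.14). In contrast to its relatives, Sorcs2 was highest, not lowest, in WT replicate 1 among the WT libraries. Its log2 fold change was 0.00133 without WT replicate 2.

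Sorl1 (ENSMUSG00000049313, mm10 chromosome 9, 41964720 to 42124297, minus strand) had a coefficient of variation of 29.0% among WT libraries, against 47.5% for Sorcs3. Its levels were 56.1, 84.4 and 103 CPM in WT and 74.0, 68.5 and 91.6 CPM in KO. The WT libraries thus spanned the whole KO range, and the log2 fold change of −0.06 (SE 0.23) moved from −0.28 without WT replicate 1 to 0.15 without WT replicate 3. Exons of Sort1, Sorcs1 and Sorl1 overlap a gene model on the opposite strand over 4.5%, 2.5% and 1.6% of their length, and whether counting used strand is not given in the sources used here.

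All 5 receptors passed the filter on low counts, and 0 of the 5 were among the 78 genes that edgeR called at an adjusted p under 0.05 over 19687 genes tested (0.396% of genes). DESeq2 called Sorcs1 and Sorcs3, against 9.03% of the genes to which it gave an adjusted p. The edgeR fit without WT replicate 1 also called both, against 9.06% of genes. In 14 of the 16 settings, the main fit and limma-voom among them, 0 receptors were called. The libraries of the groups did not overlap for 2 of the 5 receptors, against 27.7% of all genes tested. The receptors were chosen with this contrast in view, so these counts say nothing about the family. In bulk tissue, fewer cells of a type and less RNA per cell cannot be told apart for any of these values.

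The receptors whose transcripts were lower in all KO libraries are neighbours in the genome and the most alike in protein sequence. Sorcs3 and Sorcs1 lie on chromosome 19 with a gap of 1.34 Mb between them and their transcription running towards each other. The gap holds 9 gene models, and none is protein-coding. Of these, 7 held 0 counts in all 6 libraries, Gm6975 held 1 count in KO replicate 2 and 1 in KO replicate 3, and Rpl13a-ps1, a processed pseudogene whose reads may belong to its parent gene, held 35 to 75 counts per library. No other protein-coding gene was thus available in the gap to compare with the receptors.

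In proteins translated from the longest complete coding sequence of each gene, SorCS1 and SorCS3 (1192 and 1219 residues) were identical at 64.7% of aligned residues. SorCS2, of 1159 residues, was identical to SorCS1 at 46.3% and to SorCS3 at 44.3%. Sortilin and SORLA, of 858 and 2215 residues, were identical to each other at 32.1% and to the SorCS proteins at 27.7% to 29.1%. SORLA is the longest because it carries lipoprotein receptor repeats and fibronectin-type domains beside the VPS10 domain.

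The 250 bases before the transcription start of Sorcs1 and of Sorcs3 are shown because these are the members with lower values in every KO library (RefSeq, GRCm38.p6, printed 5′ to 3′ on the strand of the gene, with CG dinucleotides in capitals). The Sorcs1 window is chr19:50678647-50678896 on the minus strand, and the Sorcs3 window is chr19:48205775-48206024 on the plus strand.

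Sorcs1: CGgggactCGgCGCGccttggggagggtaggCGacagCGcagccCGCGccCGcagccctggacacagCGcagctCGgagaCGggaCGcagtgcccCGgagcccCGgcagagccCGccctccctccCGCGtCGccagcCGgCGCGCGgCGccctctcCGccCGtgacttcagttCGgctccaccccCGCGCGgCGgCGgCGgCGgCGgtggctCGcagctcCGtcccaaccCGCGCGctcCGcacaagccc

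Sorcs3: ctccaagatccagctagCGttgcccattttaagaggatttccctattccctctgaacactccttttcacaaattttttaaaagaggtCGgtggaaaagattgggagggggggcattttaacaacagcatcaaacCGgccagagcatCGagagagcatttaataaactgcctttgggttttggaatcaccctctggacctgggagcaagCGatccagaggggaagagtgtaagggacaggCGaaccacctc

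The Sorcs1 window held 41 CG dinucleotides and 79.6% G or C, and the Sorcs3 window 6 and 48.4%, against medians of 6 and 52.4% over 32851 windows of the same length in the RefSeq promoter table. The pair thus differed widely in base composition, with Sorcs3 near the median and Sorcs1 far above the upper quartile of 16 CG dinucleotides. The octamer ATGCAAAT, a sequence bound by POU-domain factors, was searched on both strands. It was absent from the windows of Sorcs1 and Sorcs3 and from both windows listed for Sorl1, and it was present in 1.6% of all windows. Windows of Sort1 and Sorcs2 were not used here.

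Libraries also differed in markers of the cell types that the ear holds. Summed CPM of 8 otic fibrocyte and mesenchyme markers was 1496, 2919 and 2782 in WT replicates 1 to 3 and 1072 to 1108 in KO. Of these, 2 of 8 fell (Car3 and Otor; 0.183% of all genes tested were called lower), with a WT level of Car3, a carbonic anhydrase, of 957 ± 191 CPM and a KO level of 425 ± 15.6 CPM (SD, n = 3 each, adjusted p = 0.049, edgeR). Like Sorcs3, this sum was lower in WT replicate 1 than in the other WT libraries and lowest in KO. Otor, Car3 and Emilin2 followed the sum, but the other genes of the list did not. Coch stood at 203 CPM in WT replicate 1 and 246 to 263 CPM in KO, and Otos at 72.0 and 78.7 to 87.6 CPM. Tbx15 was highest in WT replicate 1 (64.2 CPM). The libraries of the groups did not overlap for 4 of 8, Tbx18 with higher values in KO among them, against 27.7% of all genes tested. In this list 7 of 8 genes were at an unadjusted p under 0.05 with edgeR, and DESeq2 called 3 lower. Tbx18, which was 1 of the 7, alone had a fitted change above 0 (0.40). No marker of the list was at 0 in all libraries. These calls, and those of the marker lists that follow, are lost without WT replicate 3 or any 1 of the KO libraries, where edgeR called 0 of all genes (2087 to 3364 at an unadjusted p under 0.05). They are also lost with a term for Xist (0 genes called, 3185 at an unadjusted p under 0.05) and with the replicate number as a block (1 gene called, which was not among the 78).

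Schwann cell and satellite glia markers were also lower in WT replicate 1 than in the other WT libraries and lower still in KO. The sum of 11 genes was 4648, 8877 and 7947 CPM in WT replicates 1 to 3 and 3495 to 3985 CPM in KO, and 3 of 10 tested genes fell, Pmp22 and Prx among them (4 at an unadjusted p under 0.05, and 4 lower by DESeq2). Pmp22, a membrane protein of peripheral myelin, had a WT level of 1127 ± 225 CPM and a KO level of 471 ± 41.8 CPM (SD, n = 3 each, adjusted p = 0.049, edgeR), and was named after its values were seen. Spiral ganglion neuron markers summed to 1328, 2752 and 1843 CPM in WT replicates 1 to 3 and 1066 to 1408 CPM in KO, so that the sums overlapped. Of the 14 neuron markers 13 had fitted changes below 0, 8 had libraries that did not overlap, 9 were at an unadjusted p under 0.05 and 1 fell (Thy1), while DESeq2 called 5 lower. Over all genes tested, the libraries did not overlap for 27.7%, and 3867 of 19687 were at an unadjusted p under 0.05. With edgeR 0.183% of all genes tested were called lower, and DESeq2 called 9.03% of genes in either direction. Markers of the central nervous system summed to 193 to 548 CPM in WT and 231 to 327 CPM in KO. Of these 9 genes 0 were called by edgeR (0 at an unadjusted p under 0.05, and 0 by DESeq2), and 0 were at 0 in all libraries.

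**Figure D3:**
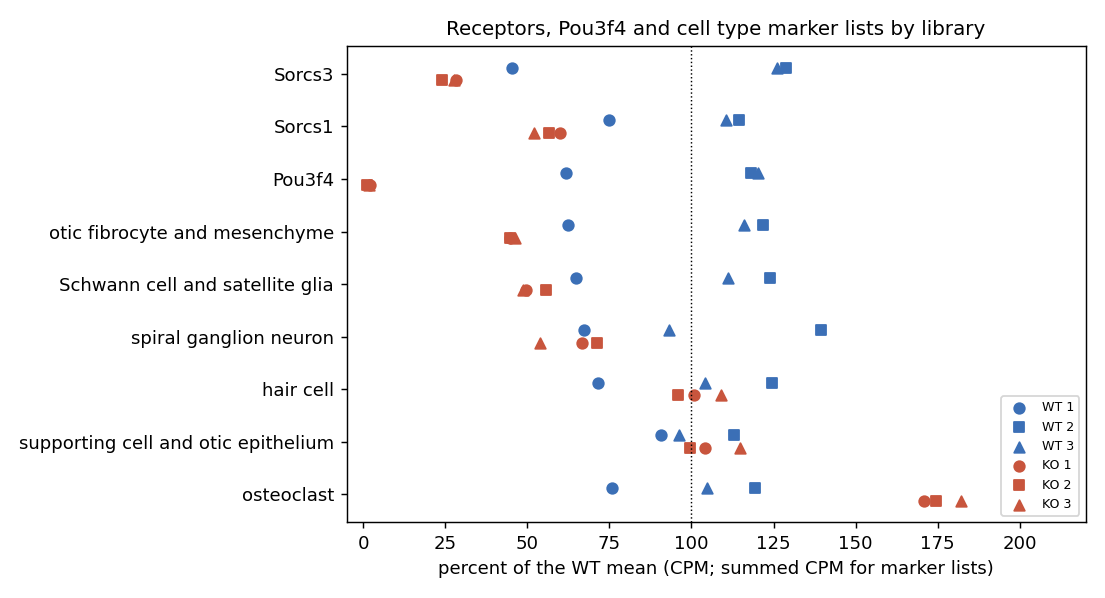
Points give each library as a percent of the WT mean, from CPM for genes and from summed CPM for marker lists, with WT in blue and KO in red and the marker shape giving the replicate. Sorcs3 in WT replicate 1 is at 45.2% of the WT mean and in KO at 24.1% to 28.2%, the fibrocyte list is at 62.4% and 44.7% to 46.2%, and hair cell markers in KO are at 96.0% to 109%.

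Relative to the mean of WT replicates 2 and 3, WT replicate 1 held 35.5% of Sorcs3, 66.6% of Sorcs1, 59.9% of Sorl1, 91.8% of Sort1 and 124% of Sorcs2. The same share was 51.8% for Pou3f4, 52.5% for the fibrocyte list, 55.2% for the Schwann cell list and 57.8% for the neuron list. It was 28.8% for the erythroid list, 40.0% for the central nervous system list, 62.3% for the strial list and 62.8% for hair cells. Other lists were higher in WT replicate 1, at 112% for chondrocytes, 113% for osteoblasts, 114% for skeletal muscle and 150% for endothelial cells. Sorl1 in WT replicate 1 was low beside neutrophil markers, whose sum was 192 CPM there against 785 to 1131 CPM in the other 5 libraries. The part of these cell types in the levels of the receptors was not tested.

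Sums of hair cell and of supporting cell markers overlapped between the genotypes, at 111 to 193 and 316 to 393 CPM in WT and 149 to 169 and 346 to 400 CPM in KO. With edgeR 0 hair cell and 0 supporting cell markers were called (0 and 4 at an unadjusted p under 0.05), and DESeq2 called only Prox1, lower, among them. Osteoclast markers summed to 4306 to 6768 CPM in WT and 9679 to 10333 CPM in KO, opposite in direction to Sorcs1 and Sorcs3, and 0 of 6 were called by edgeR (5 at an unadjusted p under 0.05, and 5 by DESeq2). Osteoblast and osteocyte markers rose in 3 of 9 (Col1a1, Col1a2 and Spp1), where 0.213% of all genes tested were called higher. Of these 9 genes 6 were at an unadjusted p under 0.05, and DESeq2 called 4 higher. Chondrocyte markers fell in 2 of 7 (Col2a1 and Col9a1), where 0.183% of all genes tested were called lower. Of these 7 genes 3 were at an unadjusted p under 0.05, and DESeq2 called 2 lower. The libraries of the groups did not overlap for 2 of the 7, against 27.7% of all genes tested. Libraries stood far apart in skeletal muscle markers, which summed to 4737, 104 and 8220 CPM in WT and 19.9, 628 and 27.4 CPM in KO, with all 8 fitted changes below 0 and a median of −4.24. Erythroid markers summed to 1974, 7307 and 6407 CPM in WT and 1915 to 2997 CPM in KO. Strial, macrophage, skeletal muscle, erythroid, neutrophil and endothelial lists had 0 called genes with edgeR, with 0, 4, 2, 2, 0 and 0 genes at an unadjusted p under 0.05. DESeq2 called 2 macrophage genes (Cd68 and Csf1r) and 1 erythroid gene (Hbb-bs) in these lists.

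The genes with profiles nearest to those of the receptors were found by the root mean square difference of log2 CPM, centred over the 6 libraries. For Sorcs3 these were Apod, a secreted lipid carrier (0.30), Emilin2, an elastic fibre protein (0.34), and Otos, a protein of cochlear fibrocytes (0.37). Levels of Apod were 205, 527 and 577 CPM in WT and 166, 182 and 178 CPM in KO, so that, as for Sorcs3, WT replicate 1 lay near the KO libraries. Emilin2 and Otos are also in the fibrocyte list above. The nearest genes of each receptor were picked from 14856 candidates by the values of the same WT and KO libraries. What kind of genes they are is therefore no evidence about the cells that express a receptor. The difference grows with how much a receptor itself varies between libraries, and the SD of the centred profile was 1.09 for Sorcs3 and 0.0974 to 0.493 for the other receptors, so the differences are not compared between receptors.

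Sorcs1 lay nearest to Lrrtm3, a synaptic adhesion protein (0.0806), Syt7, a calcium sensor of vesicle fusion (0.0808), and Kif5a, a neuronal kinesin (0.0845). Kif5a stood at 89.3, 121 and 126 CPM in WT and 57.9 to 71.9 CPM in KO. Sorcs1 and Sorcs3 had different nearest genes, but the measure depends on how far a profile swings as well as on its shape. The SD of the centred profile was 0.493 for Sorcs1 and 1.09 for Sorcs3. Their different nearest genes therefore cannot show whether the 2 receptors followed different patterns. The nearest genes of Sort1 were Khsrp, Tbc1d9b and Eef2k (0.0118 to 0.0331), those of Sorcs2 were Lamb2, Kdm4a and Eif4g1 (0.0366 to 0.0393), and those of Sorl1 were Rps6ka1, Abcc3 and Hirip3 (0.0452 to 0.0653). Where a receptor varies little between libraries, many genes lie close to it by this measure.

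The other genes of the pathway were taken from 4 lists of textbook partners, 68 genes of which 65 were tested. With edgeR 0 passed the threshold in either direction (13 higher and 11 lower at an unadjusted p under 0.05), where 0.213% of all genes tested were called higher and 0.183% lower. limma-voom also called 0, and DESeq2, which called 9.03% of all genes, called 6 higher and 9 lower. Without WT replicate 1 edgeR, which then called 9.06% of all genes, called 5 higher and 6 lower, and without WT replicate 2, a fit that called 3.78% of all genes, it called 3 higher (Ctsh, Gga2 and Pcsk6) and 0 lower.

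Of 17 tested co-receptors and membrane partners of the VPS10 receptors, 16 had a fitted change below 0, against 10050 of all 19687 genes tested, with a median of −0.35 against −0.00702 over all genes tested, and 0 passed with edgeR (7 at an unadjusted p under 0.05). DESeq2 called 7 lower and 0 higher. Several of these genes are expressed by neurons, and the neuron markers above had 13 of 14 fitted changes below 0 with a median of −0.64. The part of neurons in the values of the co-receptors was not tested. Ngfr, which binds neurotrophin precursors together with sortilin or SorCS2, was named after its values were seen. Its levels were 56.4, 53.2 and 30.3 CPM in WT and 17.3, 18.6 and 13.6 CPM in KO (log2 fold change −1.50, SE 0.25, adjusted p = 0.0655, edgeR). The groups did not overlap for Ngfr, and WT replicate 1 was its highest library, unlike for Sorcs1 and Sorcs3. Ntrk2, the receptor of mature brain-derived neurotrophic factor, had a WT level of 117 ± 12.0 CPM and a KO level of 93.6 ± 2.58 CPM (adjusted p = 0.157, edgeR). The cytokine receptor chains Lifr and Il6st, the most abundant genes of the list, had WT levels of 303 ± 70.1 and 240 ± 31.7 CPM and KO levels of 335 ± 5.11 and 227 ± 15.4 CPM.

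Among 17 tested ligands and cargo, 7 fitted changes were above 0 and 10 below, with a median of −0.21, and 0 passed with edgeR (7 at an unadjusted p under 0.05; DESeq2 called Ctsh, Grn and Pdgfb higher and App and Cntf lower). The 2 counted as not tested were Apob and Apoa5. App, the cargo of SORLA, had a WT level of 1300 ± 34.8 CPM and a KO level of 1127 ± 31.2 CPM (log2 fold change −0.21, SE 0.08, adjusted p = 0.22, edgeR). Prosaposin, Psap, a sortilin cargo, stood at 1164 ± 74.2 and 1207 ± 36.4 CPM, and the protease Ctsd at 647 ± 33.2 and 675 ± 16.6 CPM, with 34.4% of its exon length shared with a model on the same strand. The lysosomal protease Ctsh, singled out after its values were seen as the list gene nearest the threshold, stood at 76.5 ± 9.06 and 126 ± 8.94 CPM (log2 fold change 0.72, SE 0.11, adjusted p = 0.0573, edgeR).

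Most genes of the machinery that recycles the receptors had fitted changes above 0, and 0 passed with edgeR. The list held 19 genes of retromer, sorting nexins, GGA adaptors, the AP-1 complex and mannose phosphate receptors. Of these, 15 had fitted changes above 0, against 9637 of all 19687 genes tested, and 4 below (Vps26a, Vps29, Ap1b1 and Pacs1), with a median of 0.20. The 8 at an unadjusted p under 0.05 with edgeR all had changes above 0, and DESeq2 called Gga2 and M6pr higher. Vps35, the core subunit of retromer, had a WT level of 185 ± 11.8 CPM and a KO level of 213 ± 1.85 CPM (adjusted p = 0.234, edgeR). M6pr stood at 141 ± 8.95 and 174 ± 4.39 CPM (adjusted p = 0.139, edgeR), and Igf2r at 137 ± 27.7 and 160 ± 17.5 CPM. Of the 12 genes of propeptide cleavage and shedding, 7 had fitted changes above 0, with a median of 0.05, and 0 passed with edgeR (2 at an unadjusted p under 0.05; DESeq2 called Pcsk6 higher). Pcsk6, a proprotein convertase, had a WT level of 196 ± 14.8 CPM and a KO level of 289 ± 17.5 CPM (log2 fold change 0.56, SE 0.09, adjusted p = 0.0655, edgeR). The sheddase Adam10 stood at 242 ± 40.7 and 278 ± 12.5 CPM and Ncstn, a subunit of gamma-secretase, at 130 ± 13.6 and 129 ± 4.30 CPM.

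**Figure D4:**
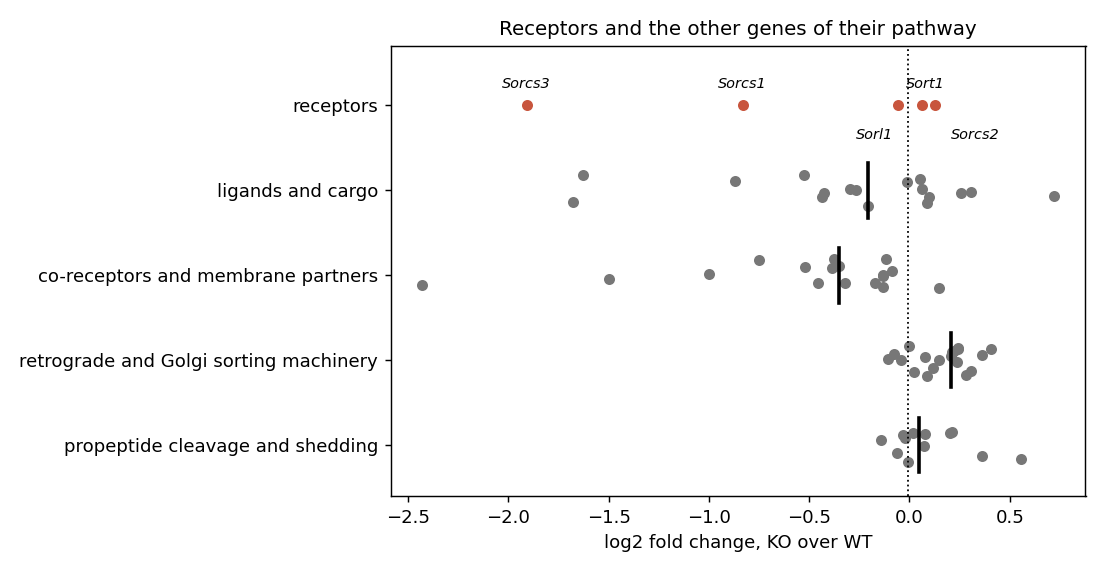
Points give the log2 fold change (KO over WT) of the 5 receptors (red) and of the tested genes of the 4 pathway lists (grey), with a black bar for the median of each list and a dotted line for the median of all genes tested. Sorcs3 (−1.91) and Sorcs1 (−0.83) lie left of the other 3 receptors, and the list medians run from −0.35 for co-receptors to 0.20 for the sorting machinery.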

How the data were processed

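Transcripts were measured in 6 libraries. Per the labels' protocols, RNA was extracted with Trizol and libraries were made with a stranded TruSeq mRNA kit. The authors deposited raw read counts per gene, and Trimmomatic, HISAT2, Cufflinks, HTSeq and build mm10 appear, without versions, per the submitters' processing notes. The tool that counted, its strand setting and its annotation release are not stated in the sources used here. Lengths, overlaps and coding sequences came from GENCODE M21, which holds 55141 of the 55401 genes.

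Genes were kept with filterByExpr (minimum count 10), scaled by TMM and compared by genotype alone across all genes with edgeR 4.0.16 (R 4.3.3, quasi-likelihood F test), with Benjamini-Hochberg adjustment over 19687 genes and a threshold of 0.05. A difference is KO over WT on the log2 scale. CPM uses the scaled sizes, and a count of 0 allows up to 3 counts, 0.131 to 0.168 CPM, for counting error only. The code was tested on simulated data. DESeq2 1.42.0, limma-voom (limma 3.58.1), other scalings and filters, a replicate block, presence of Xist (over 100 counts) as a term, omission of mitochondrial, haemoglobin and muscle genes and omission of each library were the alternatives. The labels do not name separate animals, so p-values measure only the spread between these samples, which may be technical. Replicate numbers come from the titles.

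The receptors and the lists were chosen with earlier results of these data known. Named by rule were the 5 receptors, Pou3f4, list genes past the threshold or else the 3 most abundant of a list, up to 2 abundant genes of marker lists, and the 3 nearest profiles of each receptor among genes with a proper name and a mean of at least 1 CPM. Log2 CPM used a prior count of 2. Proteins were aligned globally with BLOSUM62. Printed protein sequences were not used here. A marker gene named by the rule is not reported here.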

Additional observations from a re-analysis of the deposited data

How the results depend on the processing

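The log2 fold changes of Sorcs1, Sorcs2 and Sorcs3 kept their direction in all 15 alternatives, and that of Sort1 in 14 and of Sorl1 in 13. No alternative moved the log2 fold change of a receptor by more than 1 pooled SD of its log2 level. That of Sorcs1 ranged from −1.01 to −0.72 and that of Sorcs3 from −2.27 to −1.68. Levels per kilobase depended more on the length used. With the longest transcript, Sort1 and Sorcs2 moved by more than 1 SD in both genotypes (Sorcs2 in WT from 8.14 to 12.6), and Sorcs1 and Sorcs3 did so in KO. The order of the group means stayed the same. The number of genes called was 78, 1603 with DESeq2, 1 with the replicate block and 0 with a term for Xist (2992 and 3185 genes at an unadjusted p under 0.05 with the last 2, edgeR). Leaving out 1 library gave 0 to 1814 genes: 1814 without WT replicate 1, 760 without WT replicate 2 and 0 without any 1 of the other 4 (2087 to 3364 at an unadjusted p under 0.05). Pathway genes called numbered 6 higher and 9 lower with DESeq2 and 1 higher (Ctsh) and 1 lower (Ngfr) without a filter on low counts. Leaving out 1 library gave 0 to 5 higher and 0 to 6 lower. The cause of these changes was not tested. Same-numbered WT and KO libraries did not deviate together (correlations −0.13, −0.29 and −0.19), and no WT library correlated best with the KO library of its own number. With 3 libraries in each group, these correlations cannot show whether same-numbered libraries were handled together, and the labels give them only a shared number. With the replicate block the log2 fold changes stayed within the ranges above, and 0 receptors and 0 pathway genes were called. Sorcs3, with 60 to 76 counts in KO, is the receptor whose levels depth limits most.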
